A study of Rattus norvegicus with 3 samples.

Results

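The transcripts described here are those of the nuclear factor kappa B (NF-kB) system in rat retina: the 5 Rel family subunits Nfkb1, Nfkb2, Rela, Relb and Rel, the 3 IkB genes Nfkbia, Nfkbie and Nfkbiz, and the 2 ubiquitin enzyme genes Tnfaip3 and Birc3. Members were chosen by gene symbol, and each of the 10 symbols matched 1 row of the 32883 genes counted in every library. Retinas came from Sprague-Dawley rats at postnatal day 60, and RNA depleted of ribosomal RNA was sequenced in 3 libraries, 1 for each group. The CTL library is labelled as having had no treatment, although the protocol describes a sham operation held at 2.66 kPa, and which of the 2 applies to CTL was not settled. The HIOP library (high intraocular pressure) was made from retina at 12 h after an ischemia of 60 min at 110 mmHg. The HIOP_GSK library had the same ischemia, and a drug given only as GSK had been placed in the anterior chamber 24 h earlier. No library with vehicle in place of the drug was analysed here, and neither the compound behind the name GSK nor the number of animals in each library is given in the sources used here. With 1 library in each group there is no spread between animals, so no p-value is given. A ratio between libraries is shown with its 95% exact (Clopper-Pearson) interval, which covers counting error only.

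Total counts ran from 15132754 in HIOP_GSK to 17221510 in HIOP, with 16090064 in CTL. Levels are given in CPM (counts relative to the library total, scaled with TMM factors), and 15543 genes that reached a CPM of 1 in at least 1 library were compared, all 10 members among them. Birc3 passed through the HIOP and HIOP_GSK libraries only. The tissue label was checked against marker lists. The 7 rod genes summed to 26983 CPM in CTL, 26040 in HIOP and 18386 in HIOP_GSK. The 5 Müller glia genes summed to 2438, 1107 and 1381 CPM, of which Glul made up 1746, 942 and 1059 CPM. The median log2 ratio of these 5 genes in HIOP over CTL was -2.32. Other cell types that the samples could hold differed between the libraries too. The 7 neutrophil genes summed to 1.18, 142 and 157 CPM, with 5 of the 7 at 0 counts in CTL, and the 8 microglia and macrophage genes measured to 37.5, 55.0 and 135 CPM. Between CTL and HIOP 5 of these 8 were lower (median log2 ratio -0.33), with Cx3cr1, P2ry12 and Tmem119 at ratios of 0.397, 0.206 and 0.427, while Ptprc, a gene of leukocytes in general, went from 2.61 to 24.5 CPM. The 6 lymphocyte genes summed to 1.93, 1.58 and 1.97 CPM. Endothelial genes (5 measured) summed to 602, 328 and 357 CPM, of which Kdr made up 569.7, 299 and 316 CPM, and Cdh5 went the other way, at 8.45, 15.1 and 16.2 CPM. The 5 lens genes summed to 732, 2039 and 7207 CPM, and the 4 genes of cornea and surface epithelium to 262, 11.8 and 49.3 CPM. The part of these cell types in the results below was not tested, and in such bulk RNA fewer cells of a type cannot be told apart from less RNA per cell.

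NF-kB is a dimeric transcription factor that waits in the cytoplasm bound to inhibitors of the IkB family. Inflammatory signals activate the IkB kinase, the inhibitor is degraded and the dimer enters the nucleus. There it binds kB sites near genes of inflammation and survival, and among its known targets are its own subunits and inhibitors. Induction of the inhibitors makes the system self-limiting. In the retina, NF-kB activity has been studied in glia, microglia and vessels after injury.

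Sequence next to the start of these genes bears on that feedback, so the kB motif was searched around the RefSeq start of each member. RefSeq promoter windows of the build GRCr8 (250 bases before to 50 after the start) were at hand for 8 members, all but Relb and Birc3. The submitters' processing notes name another build (Rnor_6.0) for the counts, and no coordinates were converted. The kB consensus of 10 bases, searched on both strands, matched in 7 of the 8 windows, and in 7.51% of 33469 such windows. A simplified motif (GGG, then any 3 bases, then TTCC) overlaps with it and matched in the same 7, and in 5.37% of all windows. Genes of subunits and inhibitors are known targets of NF-kB, so matches were likely beforehand and these shares are a description. The stretches of 30 bases around the sites that match both motifs are shown for these 7 genes, because they let the sites be compared. Each reads 5′ to 3′ on the strand of the gene, with consensus matches in capitals.
Nfkb1: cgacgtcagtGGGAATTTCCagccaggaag
Nfkbiz: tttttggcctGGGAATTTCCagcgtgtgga
Nfkb2: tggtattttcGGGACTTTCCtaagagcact
Nfkbia: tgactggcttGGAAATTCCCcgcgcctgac
Tnfaip3: gactGGAAAGTCCCtcGGAAATCCCCctgt
Rel: gtaggcagcGGGAAATCCCCccccgttccg
Nfkbie: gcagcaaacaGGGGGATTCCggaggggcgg
These stretches lie at chr2:226805440-226805469 (minus) for Nfkb1, chr11:58251698-58251727 (plus) for Nfkbiz, chr1:255108344-255108373 (plus) for Nfkb2, chr6:78597084-78597113 (minus) for Nfkbia, chr1:15544021-15544050 (minus) for Tnfaip3, chr14:101922000-101922029 (minus) for Rel and chr9:22948017-22948046 (minus) for Nfkbie. Nfkb1, Nfkbiz and Nfkbia carry the same match, GGGAATTTCC, which in Nfkbia reads on the opposite strand. Nfkb2 carries GGGACTTTCC, and so does Tnfaip3 on the opposite strand. The match lies 13 to 4 bases before the start in Nfkbiz, 20 to 11 before it in Nfkb2, 31 to 22 before it in Nfkbia, and from base 4 to base 13 after it in Nfkb1. Rel holds a run of overlapping matches, and Tnfaip3 a pair of sites.

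The bases before the start are shown for 3 genes that differ in this respect: Nfkbia with 1 match, Tnfaip3 with 3 and Rela with 0. Each is 250 bases long, reads 5′ to 3′ on the strand of the gene and ends at the base before the start, with consensus matches in capitals.
Nfkbia: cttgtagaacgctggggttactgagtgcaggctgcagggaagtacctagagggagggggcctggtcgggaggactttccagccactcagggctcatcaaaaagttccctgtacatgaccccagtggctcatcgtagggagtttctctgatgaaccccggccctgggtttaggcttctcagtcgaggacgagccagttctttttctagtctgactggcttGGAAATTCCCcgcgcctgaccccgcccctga
Tnfaip3: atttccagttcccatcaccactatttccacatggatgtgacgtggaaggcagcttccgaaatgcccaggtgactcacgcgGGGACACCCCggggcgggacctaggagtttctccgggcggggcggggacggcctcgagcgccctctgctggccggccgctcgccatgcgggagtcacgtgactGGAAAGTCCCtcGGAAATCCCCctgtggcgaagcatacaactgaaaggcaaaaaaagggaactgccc
Rela: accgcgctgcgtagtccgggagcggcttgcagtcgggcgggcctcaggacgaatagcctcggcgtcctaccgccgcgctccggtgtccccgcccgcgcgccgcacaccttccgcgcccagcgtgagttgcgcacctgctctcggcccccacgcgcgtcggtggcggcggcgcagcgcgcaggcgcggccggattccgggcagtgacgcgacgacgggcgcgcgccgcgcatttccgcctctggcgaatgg
They lie at chr6:78597073-78597322 on the minus strand, chr1:15543980-15544229 on the minus strand and chr1:212354086-212354335 on the plus strand. A match describes letters only: it does not show that a factor binds there, and its absence covers only these windows.

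**Figure D1:**
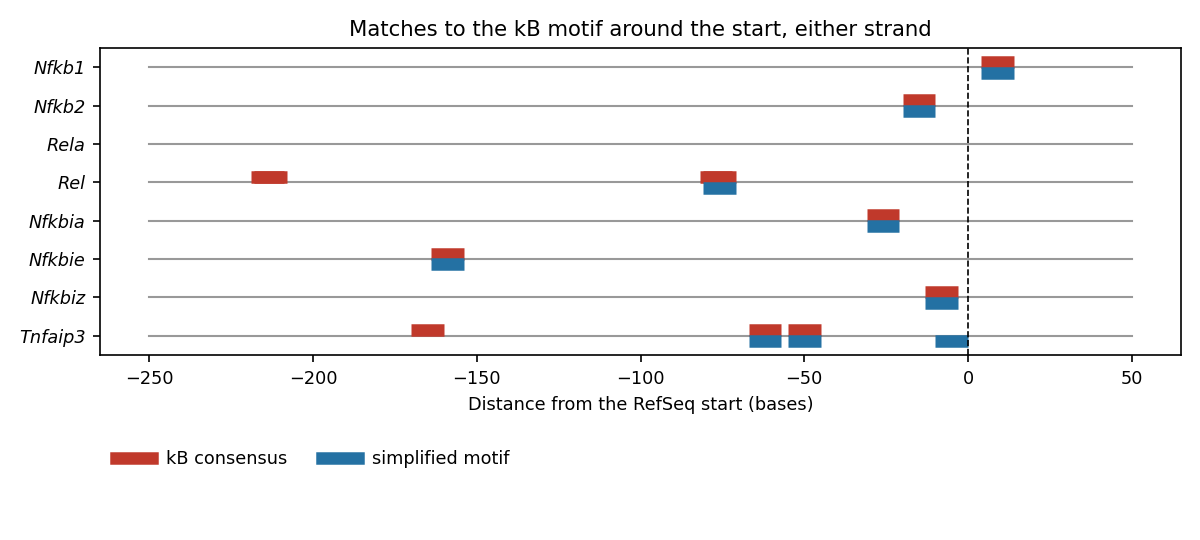
Positions of kB consensus matches (red) and matches to the simplified motif (blue) on either strand, from 250 bases before to 50 after the RefSeq start of 8 members; the dashed line is the start. Matches of Nfkb2, Nfkbia and Nfkbiz lie within 31 bases before the start, and Rela has 0 matches.

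The first comparison, of HIOP with CTL, describes the system 12 h after ischemia. Most of its genes were higher in HIOP. A ratio of 2-fold or more upward was reached by 7 of the 10 members, where 9.0% of all 15543 genes compared reached it, and downward by 0 members, where 8.04% of all genes did. At a limit of 1.5-fold, 9 members were higher, where 16.1% of all genes were. The median log2 ratio of the members was 1.67, against 0.00 over all genes compared. Relb, Nfkb2, Nfkbiz and Birc3 had the largest ratios, and Tnfaip3 had almost the same level in both libraries. Birc3 could reach the filter only through the ischemic libraries, and its ratio rests on 6 counts in CTL.

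Among the subunits, Rela encodes the subunit that carries the activating domain of the common dimer. Rela (ENSRNOG00000030888) had 427 counts in CTL, 1110 in HIOP and 780 in HIOP_GSK, or 26.5, 64.8 and 51.3 CPM. It was lowest in CTL and highest in HIOP, where it was 2.44-fold higher than in CTL (2.18 to 2.74). Nfkb1 encodes the precursor of the DNA-binding partner of Rela. Nfkb1 (ENSRNOG00000023258) had 999, 2059 and 1272 counts in CTL, HIOP and HIOP_GSK, or 62.1, 120.3 and 83.6 CPM, and its ratio of HIOP to CTL was 1.94 (1.80 to 2.09), just under the limit of 2-fold. With the deposited TPM (a measure per transcript length) that ratio was 2.22. Rel and Tnfaip3, the other members under 2-fold on counts, were under it on TPM too, at 1.62 and 0.881.

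Relb and Nfkb2 encode the dimer of the alternative NF-kB pathway, in which the Nfkb2 precursor is processed after signals from receptors such as that of lymphotoxin. Relb (ENSRNOG00000033235) had 47 counts in CTL, 397 in HIOP and 240 in HIOP_GSK, or 2.92, 23.2 and 15.8 CPM. Its level in HIOP was 7.94-fold that of CTL (5.86 to 11), the largest ratio among the 5 subunits. Nfkb2 (ENSRNOG00000019311) had 82, 676 and 321 counts, or 5.09, 39.5 and 21.1 CPM, a ratio of 7.75 (6.16 to 9.87). The intervals of these 2 genes did not overlap those of Rela and Nfkb1. Rel, which encodes the subunit c-Rel known mainly from lymphoid and myeloid cells, differed less. Rel (ENSRNOG00000054437) had 109, 197 and 193 counts, or 6.77, 11.5 and 12.7 CPM, and was 1.70-fold higher in HIOP (1.34 to 2.17). It was the 1 member whose level was highest in HIOP_GSK, although its interval there overlapped that of HIOP.

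Each of the 3 IkB genes exceeded 2-fold in HIOP over CTL. Nfkbia, the rapidly resynthesised inhibitor that exports NF-kB from the nucleus, had the most counts of any member in HIOP. Nfkbia (ENSRNOG00000007390) had 1033 counts in CTL, 2774 in HIOP and 1508 in HIOP_GSK, or 64.2, 162 and 99.1 CPM, and its ratio of HIOP to CTL was 2.52 (2.35 to 2.71). Nfkbie, a second cytoplasmic inhibitor, started from a lower level. Nfkbie (ENSRNOG00000019907) had 67, 291 and 172 counts, or 4.16, 17 and 11.3 CPM, a ratio of 4.08 (3.12 to 5.41). Nfkbiz encodes a nuclear IkB protein that acts as a cofactor for a subset of NF-kB targets, among them cytokine and antimicrobial genes. Nfkbiz (ENSRNOG00000031163) had 118, 830 and 479 counts, or 7.33, 48.5 and 31.5 CPM, and was 6.61-fold higher in HIOP (5.45 to 8.09). The interval of Nfkbiz did not overlap those of Nfkbia and Nfkbie.

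The 2 genes of ubiquitin enzymes had the smallest and the largest ratio of the members. Tnfaip3 encodes a ubiquitin-editing enzyme that ends signalling from receptors of tumour necrosis factor and interleukin-1. Tnfaip3 (ENSRNOG00000049517) had 1655 counts in CTL, 1813 in HIOP and 960 in HIOP_GSK, or 103, 106 and 63.1 CPM. Its ratio of HIOP to CTL was 1.03 (0.963 to 1.10), an interval that holds 1. The direction of this small difference flipped with the deposited TPM, where the ratio was 0.881. In CTL it was the most abundant member by count. Birc3 encodes a ubiquitin ligase of the inhibitor of apoptosis family that helps to assemble signalling complexes at receptors of the tumour necrosis factor family. Birc3 (ENSRNOG00000005731) had 6 counts in CTL, 435 in HIOP and 203 in HIOP_GSK, or 0.373, 25.4 and 13.3 CPM. The ratio of HIOP to CTL was 68.2 (31.1 to 187), with the wide interval that 6 counts allow, and 39 of the 15543 genes compared had a larger log2 ratio. Birc2 is a close paralog, so the split of counts between the 2 genes is uncertain. Birc2 itself had 1090, 1315 and 1076 counts, a ratio of HIOP to CTL of 1.13 (1.05 to 1.23).

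**Figure D2:**
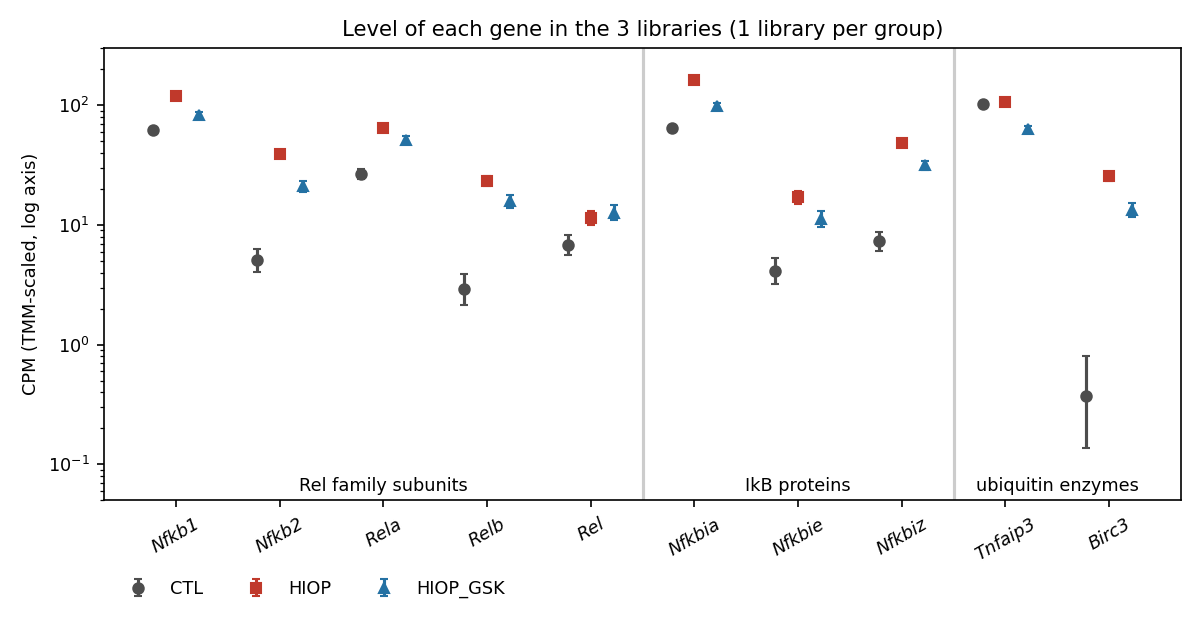
Level of each NF-kB gene in the CTL, HIOP and HIOP_GSK libraries, as TMM-scaled CPM on a log axis; bars are 95% exact Poisson intervals of the count and cover counting error only. The gap between CTL and HIOP is widest for Birc3 (0.373 and 25.4 CPM) and almost closed for Tnfaip3 (103 and 106 CPM).

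HIOP_GSK was compared with HIOP to describe the ischemic retina with the drug and without it. This comparison shares the HIOP library with the first, so the 2 are not independent. A level that is high in that library raises the first ratio and lowers this one. In HIOP_GSK 9 of the 10 members had a lower level than in HIOP, and Rel was the exception. At the limit of 2-fold, 0 of the 10 members were lower, where 1.69% of all genes compared were, and 0 were higher, where 4.56% were. At a limit of 1.5-fold, 5 members were lower (Nfkb2, Nfkbia, Nfkbiz, Tnfaip3 and Birc3), where 4.82% of all genes compared were. The median log2 ratio of the members was -0.60, against 0.00 over all genes compared.

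Birc3 and Nfkb2 lay closest to the 2-fold limit. Birc3 was 1.90-fold lower in HIOP_GSK than in HIOP (1.61 to 2.26), and Nfkb2 was 1.87-fold lower (1.64 to 2.14). Both intervals include 2-fold. Tnfaip3, which had hardly differed between CTL and HIOP, was 1.68-fold lower in HIOP_GSK than in HIOP (1.55 to 1.82), and Nfkbia was 1.64-fold lower (1.54 to 1.74). Nfkbiz was 1.54-fold lower (1.37 to 1.73) and Nfkbie 1.5-fold lower (1.24 to 1.83). On the log2 scale with a prior count, the Nfkbie difference of -0.58 fell just short of 1.5-fold. Of the subunits, Relb was 1.47-fold lower (1.25 to 1.73), Nfkb1 1.44-fold lower (1.34 to 1.54) and Rela 1.26-fold lower (1.15 to 1.39). Rel had a ratio of HIOP_GSK to HIOP of 1.10 (0.899 to 1.35). The 5 regulators thus had a median log2 ratio of -0.71 and the 5 subunits one of -0.52, and no test of that difference was possible. Markers of other cells differed between HIOP and HIOP_GSK as well. Of the 7 neutrophil genes 4 were lower in HIOP_GSK and 3 higher, with a median log2 ratio of -0.23. Their sum was 142 CPM in HIOP and 157 in HIOP_GSK, and its rise rests on Csf3r, at 21.0 and 61.3 CPM. Each of the 8 microglia and macrophage genes was higher in HIOP_GSK (median log2 ratio 1.45), as were the 5 lens genes (median 2.96). So were the 5 Müller glia genes (median 1.01) and the 5 endothelial genes (median 0.76). The 4 genes of cornea and surface epithelium were higher too (median 1.85). Of the 7 rod genes, 5 were lower (median -0.37). The part of these shifts in the lower NF-kB levels was not tested.

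HIOP_GSK and CTL were set side by side to show which members stayed above the level without ischemia. This comparison shares a library with each of the others, so it adds no independent measurement. In HIOP_GSK 5 of the 10 members were at least 2-fold above CTL, where 10.4% of all genes compared were, and 0 at least 2-fold below it, where 6.32% were. At 1.5-fold, 8 members were higher, where 17.6% of all genes were, and 1 lower, where 16.6% were. Birc3 was 35.8-fold (16.2 to 98.7), Relb 5.40-fold (3.94 to 7.55), Nfkbiz 4.29-fold (3.50 to 5.30), Nfkb2 4.14-fold (3.24 to 5.34) and Nfkbie 2.72-fold higher (2.04 to 3.66). Rela had a ratio of 1.93 (1.72 to 2.18), Rel one of 1.87 (1.47 to 2.39), Nfkbia one of 1.54 (1.43 to 1.67) and Nfkb1 one of 1.35 (1.24 to 1.46). Tnfaip3 was the 1 member with a lower level in HIOP_GSK than in CTL, at 1.63-fold lower (1.5 to 1.77).

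**Figure D3:**
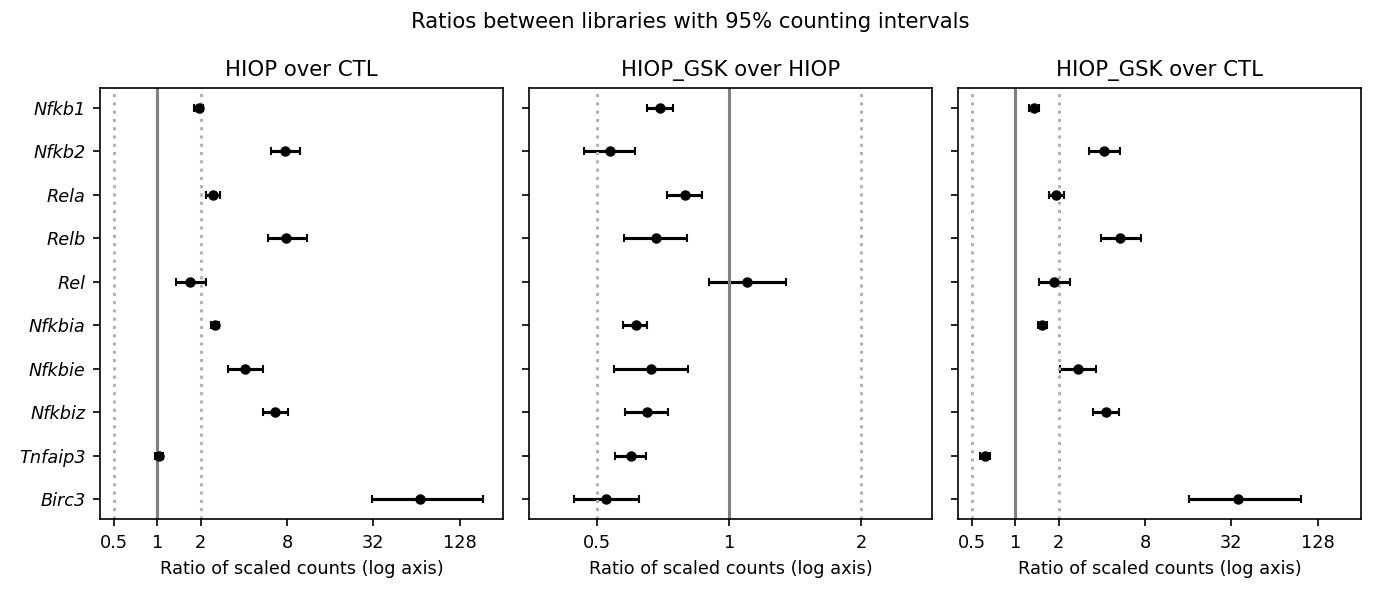
Ratio of scaled counts for each NF-kB gene in the 3 comparisons, on log axes, with 95% exact counting intervals; the solid line marks a ratio of 1 and dotted lines mark 2-fold. Ratios of HIOP to CTL run from 1.03 for Tnfaip3 to 68.2 for Birc3, while those of HIOP_GSK to HIOP lie between 0.525 and 1.10.

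Levels of different genes can be compared only per transcript length, so the deposited TPM were used for that. In CTL the members fell into 3 ranges. Tnfaip3 and Nfkbia were the most abundant, at 52.2 and 49.7 TPM. Rela and Nfkb1 followed at 13.7 and 12.9 TPM, and then Nfkbie at 3.48, Rel at 3.23, Nfkbiz at 2.52, Nfkb2 at 2.14, Relb at 1.27 and Birc3 at 0.200 TPM. In HIOP the order was Nfkbia (117 TPM), Tnfaip3 (46.0), Rela (31.1), Nfkb1 (28.6), Nfkbiz (17.4), Nfkb2 (14), Birc3 (12.9), Nfkbie (11.8), Relb (11.7) and Rel (5.22). In HIOP_GSK it was Nfkbia (68.5 TPM), Tnfaip3 (27.8), Rela (26.4), Nfkb1 (19.99), Nfkbiz (10.8), Relb (9.53), Nfkbie (8.63), Nfkb2 (7.27), Rel (6.32) and Birc3 (6.0). Without replicates no spread is known, and neighbours in these orders, such as Rela and Nfkb1 or Nfkbie and Relb in HIOP, cannot be ranked.

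The make-up of the subunit transcripts differed between the libraries. The 5 subunit genes together had 33.2 TPM in CTL, 90.7 in HIOP and 69.5 in HIOP_GSK. Rela and Nfkb1, the genes of the common dimer, took 41.2% and 38.8% of that sum in CTL, 34.3% and 31.5% in HIOP, and 38.0% and 28.8% in HIOP_GSK. Nfkb2 took 6.45%, 15.5% and 10.5%, and Relb 3.83%, 12.9% and 13.7%. The share of Rel was 9.74% in CTL, 5.76% in HIOP and 9.09% in HIOP_GSK, lowest in the library where the other 4 subunit genes were highest.

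Ratios of a pair of genes within a library do not depend on how libraries are scaled to each other. The ratio of Relb to Rela was 0.0929 in CTL, 0.377 in HIOP and 0.361 in HIOP_GSK on TPM. The same ratio of counts was 0.110 (0.0796 to 0.149), 0.358 (0.318 to 0.401) and 0.308 (0.265 to 0.356), so CTL lay apart from both ischemic libraries and these overlapped each other. For Nfkb2 to Nfkb1 the TPM ratios were 0.166, 0.491 and 0.364, and those of counts 0.0821 (0.0647 to 0.103), 0.328 (0.301 to 0.358) and 0.252 (0.223 to 0.285), with no overlap between the 3 libraries. The inhibitor Nfkbia kept nearly the same ratio to Rela in CTL and HIOP, at 3.64 and 3.76 on TPM, and was at 2.59 in HIOP_GSK. On counts these ratios were 2.42 (2.16 to 2.71), 2.5 (2.33 to 2.68) and 1.93 (1.77 to 2.11). Tnfaip3 to Nfkbia stood at 1.05 in CTL, 0.394 in HIOP and 0.406 in HIOP_GSK on TPM, and on counts at 1.60 (1.48 to 1.73), 0.654 (0.616 to 0.694) and 0.637 (0.587 to 0.691). The 2 feedback genes thus had close levels per length in CTL, and Nfkbia was the more abundant in both ischemic libraries.

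**Figure D4:**
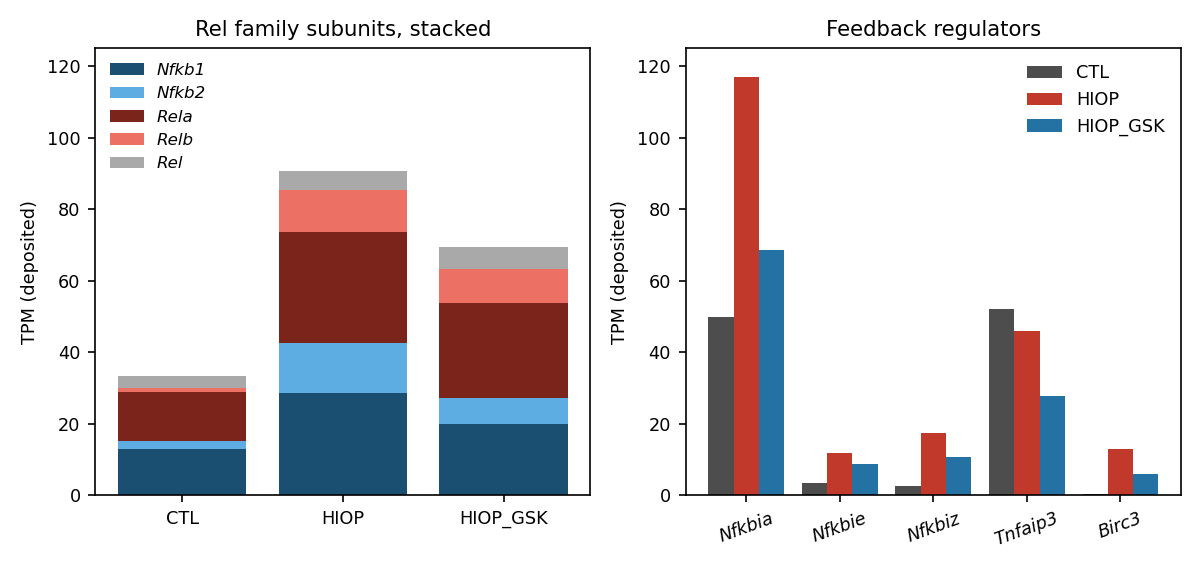
Deposited TPM of the 5 Rel family subunits, stacked for each library (left), and of the 5 feedback regulators, side by side (right); 1 library per bar, with no error bars because there are no replicates. The subunit sum is 33.2 TPM in CTL, 90.7 in HIOP and 69.5 in HIOP_GSK, and Tnfaip3 does not share the peak in HIOP that the other regulators show.

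The other genes of the pathway were described by fixed lists of 105 genes, of which 102 were found and 90 passed the count filter. In HIOP over CTL 45 of the 90 passed 2-fold upward and 0 downward, where 9.0% and 8.04% of all genes compared did. Of the 90, 23 were under 1 CPM in CTL, so they passed the filter only through an ischemic library. In HIOP_GSK over HIOP 2 passed it upward and 19 downward, where 4.56% and 1.69% of all genes did. The counts of single lists below are read against the same shares. Where a list holds genes that passed the filter only through the ischemic libraries, those genes had to differ, so its count is a description. The same holds between HIOP_GSK and HIOP for genes that passed through HIOP alone or HIOP_GSK alone.

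Of the other IkB family genes, Bcl3 stood beside Birc3 in size. Bcl3, a nuclear IkB protein that partners the Nfkb1 and Nfkb2 products, had 20 counts in CTL, 870 in HIOP and 647 in HIOP_GSK, a ratio of HIOP to CTL of 40.9 (26.3 to 67.3). Between the ischemic libraries it was 1.20-fold lower with the drug (1.08 to 1.33). Nfkbib and Nfkbid, a cytoplasmic and a nuclear IkB gene, had ratios of HIOP to CTL of 1.94 (1.59 to 2.38) and 1.95 (1.40 to 2.73), and both were 1.37-fold lower in HIOP_GSK than in HIOP (1.14 to 1.65 and 1.02 to 1.86).

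All 8 genes of the IkB kinase complex and its relatives passed the filter, and 0 of them passed 2-fold either after ischemia (median log2 ratio 0.24) or between HIOP_GSK and HIOP (median -0.04). With 8 genes, a count of 0 is close to what the shares over all genes give. Ikbke, a related kinase, had the largest ratio of the list, 1.88 in HIOP over CTL (1.43 to 2.5). Adaptor and ubiquitin ligase genes included 4 of 22 past 2-fold upward in HIOP over CTL (median 0.52) and 0 past it in HIOP_GSK over HIOP. Those 4 were Myd88, the adaptor of interleukin-1 and Toll-like receptors, at 4.57-fold (3.55 to 5.97), Traf1 at 6.35-fold (2.21 to 25, from 4 counts in CTL), and the receptor-associated kinase genes Irak2 at 2.30-fold (1.73 to 3.08) and Irak4 at 2.04-fold (1.51 to 2.80).

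Among 16 other negative regulators, 4 passed 2-fold upward in HIOP over CTL (median 0.40). Zc3h12a, whose product degrades cytokine transcripts, went from 38 counts in CTL to 340 in HIOP, 8.41-fold higher (6.01 to 12.1). It had 126 counts in HIOP_GSK and was the 1 gene of this list past 2-fold there, 2.40-fold lower than in HIOP (1.95 to 2.97). Tnip2, which encodes a partner of the Tnfaip3 product, was 4.71-fold higher in HIOP (4.27 to 5.20), Irak3 2.26-fold (1.74 to 2.95) and Sigirr 2.51-fold (1.13 to 6.13, from 9 counts in CTL).

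Of 11 receptor genes, 7 passed 2-fold upward in HIOP over CTL (median 1.42), and the other 4, Cd40, Tnfrsf11a, Tlr3 and Tlr4, did not. Between HIOP_GSK and HIOP the median of the receptors was -0.17. Tnfrsf12a was 56.5-fold higher in HIOP (35.6 to 95.6), Tlr2 18.0-fold (10.9 to 31.9) and the receptors of tumour necrosis factor, Tnfrsf1b and Tnfrsf1a, 10.5-fold (7.35 to 15.3) and 5.02-fold (4.25 to 5.95). Cd40, with 10 and 21 counts in HIOP and HIOP_GSK, had a ratio of HIOP_GSK to HIOP of 2.36 (1.06 to 5.62). It reached a CPM of 1 only in HIOP_GSK (0.584 CPM in HIOP, 1.38 in HIOP_GSK), so it had to be higher there. Ligand genes were sparse, and only Il1a and Il1b of 9 passed the filter, both through an ischemic library (median log2 ratio 6.77 in HIOP over CTL). Il1a had 2, 183 and 43 counts in CTL, HIOP and HIOP_GSK and was 3.78-fold lower in HIOP_GSK than in HIOP (2.70 to 5.40), while Il1b had 1, 868 and 451 counts. The difference of Il1a was smaller on the deposited TPM. Its ratio of HIOP_GSK to HIOP was 0.264 on counts and 0.473 on TPM. With the TPM pseudocount of 0.5 its log2 ratio was -0.97, just short of 2-fold. Tnf, a classical inducer of NF-kB, had 0, 3 and 0 counts. The reference gene Hprt1 had 0 counts in each library, so values this low need not mean that a transcript was absent.

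The list of 29 known NF-kB targets, mainly cytokines, chemokines and adhesion genes, was described last. Of the 28 that passed the filter, 27 exceeded 2-fold upward in HIOP over CTL (median log2 ratio 4.51), and 17 of these 28 were under 1 CPM in CTL and so had passed through an ischemic library. In HIOP_GSK over HIOP 17 of 28 were past 2-fold downward and 1 upward. The median of the 28 was -1.38, against -0.60 for the 10 NF-kB genes, which all passed the filter in both libraries. The neutrophil attractant Cxcl6 went from 5418 counts in HIOP to 273 in HIOP_GSK, Ccl20 from 1143 to 96, the growth factor gene Csf3 from 561 to 30 and Ptx3 from 1633 to 99. Ccl2 and Cxcl1 had 2758 and 2408 counts in HIOP and 813 and 285 in HIOP_GSK. These named genes are among the steepest of the list. Of the 28 targets, 24 were lower in HIOP_GSK than in HIOP and 4 were higher. The 24 include Ccl5 and Csf2, which reached a CPM of 1 only in HIOP (1.11 and 1.05 CPM) and so had to be lower. The 1 past 2-fold upward was Mmp9, with 162 counts in HIOP and 457 in HIOP_GSK.

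**Figure D5:**
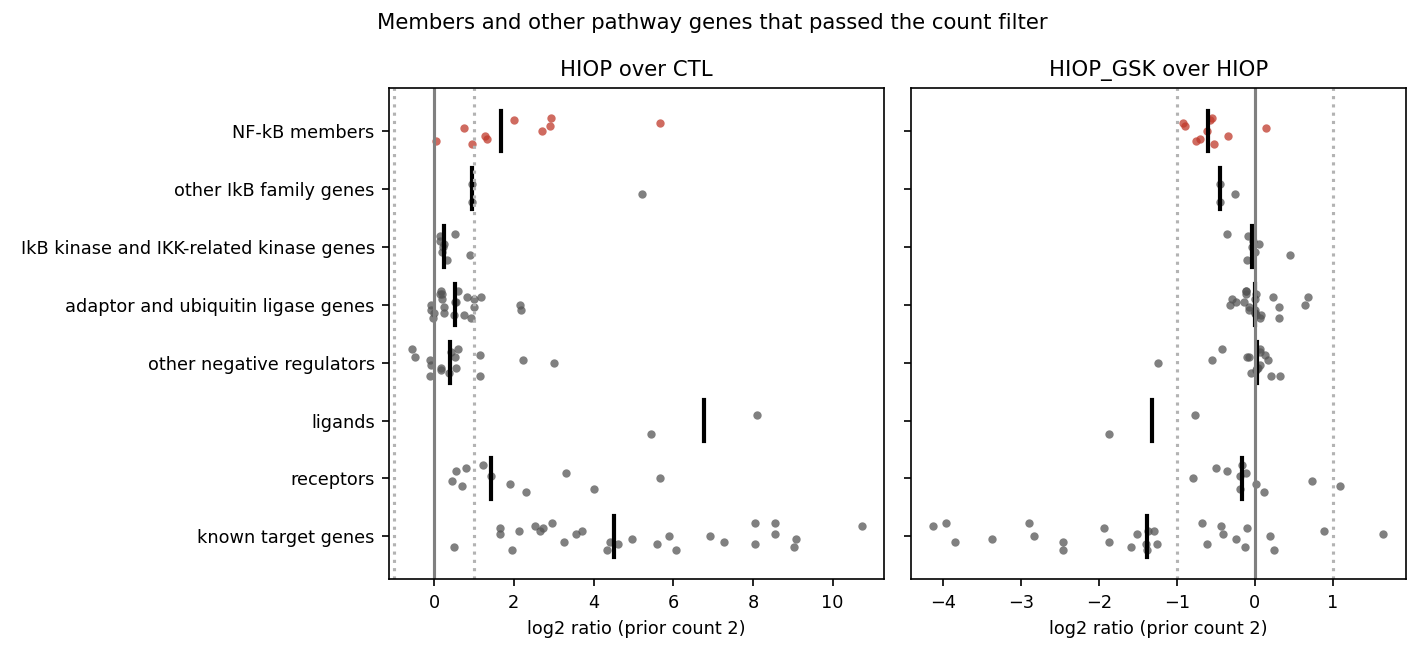
Log2 ratios of HIOP over CTL (left) and HIOP_GSK over HIOP (right) for the 10 NF-kB genes (red) and 7 lists of other pathway genes (grey) that passed the count filter; each point is a gene, thick lines are list medians and dotted lines mark 2-fold. Genes of the IkB kinase complex and its relatives run from 0.14 to 0.89 (left) and from -0.36 to 0.45 (right). Their medians are 0.24 and -0.04, and known targets have medians of 4.51 and -1.38.

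Over the 3 libraries, the genes with a pattern closest to the median subunit (log2 ratio 1.29 for HIOP over CTL, -0.52 for HIOP_GSK over HIOP) were Gen1, Tars, Rnf225, Fam46a and Oasl, at Euclidean distances from 0.039 to 0.074. Closest to the median regulator (2.0 and -0.71) were Lmo2, Sox11, Hrasls5, Stbd1 and Hbegf, at distances from 0.081 to 0.156. The candidates were 13422 named genes with at least 50 counts in all. With 3 libraries a pattern is only 2 numbers, and many unrelated genes can lie this near.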

How the data were processed

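RNA of rat retina was measured in 3 libraries, 1 per group (CTL, HIOP and HIOP_GSK, by sample title). The deposited tables give a raw count and a TPM value for each gene; STAR 2.5.4b, RSEM 1.3.1 and Rnor_6.0 are named per the submitters' processing notes, without their roles. Strand setting and pooling are not given in the sources used here. The counts are whole numbers and were used as deposited. They do not always match the TPM: each library held 17 to 19 genes without a count but over 1 TPM, and 503 to 566 at 0 TPM with 20 counts or more. A TPM or count of 0 can therefore be a failed estimate.

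Counts were scaled with TMM factors of edgeR 4.0.16 (R 4.3.3), from 0.994 to 1.006. The filter was a CPM of 1, reached in any library. A gene was called at a ratio of 2-fold on log2 CPM with a prior count of 2. Ratios in the text are of scaled counts without a prior, with exact 95% intervals (Clopper-Pearson, scipy 1.17.1). The intervals cover counting error only. No molecular identifiers are described in the labels, so repeated copies of a molecule cannot be told apart, and the intervals may be too narrow even for that. The functions were tested on simulated counts. The alternatives were total counts, DESeq2 1.42.0 size factors, TMM without mitochondrial and the 20 most abundant genes, deposited TPM with a pseudocount of 0.5, other filters, prior counts and limits.

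The members and gene lists were chosen with earlier results of these data known. Named pathway genes are, per list, up to 4 past 2-fold with the interval bound farthest from 1 in each of HIOP over CTL and HIOP_GSK over HIOP, and every gene of a list of 3. Genes of similar pattern are the 5 nearest to the median subunit and to the median regulator. Birc2, Tnf, Hprt1, Mmp9, Ccl5, Csf2, Tnip1, Tnip3, Chuk, Ikbkb, Ikbkg and Ikbke were named after their values were seen. So were the receptors under 2-fold and the single marker genes. RefSeq (GRCr8) lists 1 pseudogene overlapping Birc3 and 0 genes overlapping each other member. Listed genes without a row are not analysed here.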

Additional observations from a re-analysis of the deposited data

How the results depend on the processing

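No paired analysis was possible because each group has 1 library, and for the same reason no replicate could be left out. Of 240 member log2 ratios recomputed under 8 alternatives, 226 stayed within their counting interval and 0 of the called ratios changed sign. The number 226 is partly fixed in advance. Other filters cannot move these ratios, and other scalings moved them little, because the TMM factors were close to 1. Only the deposited TPM are another quantification. Of the 14 outside, 12 came from the deposited TPM and 2, both of Birc3, from a prior count of 10. In HIOP over CTL the number of members at least 2-fold higher, 7, ran from 5 at a limit of 3-fold to 9 at a limit of 1.5-fold. In HIOP_GSK over HIOP the number at least 2-fold lower, 0, was 1 with the deposited TPM and 5 at the limit of 1.5-fold. In HIOP_GSK over CTL the limit of 1.5-fold gave 8 members higher, against 5, and 1 lower, against 0. Of the pathway genes, 2 were higher in HIOP_GSK over HIOP, which was 1 with the filter at CPM 5, with a prior count of 10 and at the limit of 3-fold, and 6 at the limit of 1.5-fold. The 19 lower there were 12 at the limit of 3-fold, and the 0 lower in HIOP_GSK over CTL were 1 without the filter and with TMM scaling that left out mitochondrial and the 20 most abundant genes. The cause was not tested beyond what these settings do by construction.

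Ratios between members on counts, not per length, differed in size from those on TPM: Nfkbia to Rela was 2.42, 2.5 and 1.93 in CTL, HIOP and HIOP_GSK, Nfkb2 to Nfkb1 was 0.0821, 0.328 and 0.252, Tnfaip3 to Nfkbia was 1.60, 0.654 and 0.637, and Relb to Rela was 0.308 in HIOP_GSK. Counts of all genes at least 2-fold lower in HIOP_GSK over HIOP, 263, were 711 without the filter, 114 with the filter at CPM 5 and 153 with a prior count of 10. The other counts of all genes moved by over 1.5 times only without the filter (HIOP over CTL, 2113 lower against 1250; HIOP_GSK over HIOP, 1448 higher against 709; HIOP_GSK over CTL, 2534 higher against 1623 and 1826 lower against 983), with the filter at CPM 5 (773, 336, 1055 and 594 in the same order) or at another limit of fold. Depth limits Birc3 in CTL (6 counts) most. A difference between animals cannot be separated from any of these values.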

Other observations

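The Tnip genes encode partners through which the Tnfaip3 product finds its targets, and 2 of the 3 passed the count filter. Tnip1 had 1197 counts in CTL, 1945 in HIOP and 1290 in HIOP_GSK, a ratio of HIOP to CTL of 1.53 (1.42 to 1.64), and was 1.34-fold lower in HIOP_GSK than in HIOP (1.25 to 1.44). Tnip2 had 494, 2474 and 1501 counts and was 1.47-fold lower in HIOP_GSK than in HIOP (1.37 to 1.56). Tnip3 had 2, 17 and 15 counts and did not pass the filter. These genes were looked at after their values were seen.

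The genes of the central kinase complex had ratios near 1 after ischemia. Chuk and Ikbkb, its catalytic subunits, had ratios of HIOP to CTL of 1.25 (1.16 to 1.34) and 1.10 (1.01 to 1.20), and Ikbkg, its scaffold, one of 1.14 (0.973 to 1.35). Ikbke, a related kinase, had 79, 158 and 193 counts and was the 1 gene of the 8 past 2-fold in HIOP_GSK over CTL, at 2.58-fold (1.98 to 3.40). With the deposited TPM that ratio was 1.68, under 2-fold.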
